A study of Mus musculus with 14 samples.

Results

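The complement and coagulation genes are 39 named members of 2 linked plasma protein systems, taken by symbol from a table of liver expression with 22850 gene rows. All 39 had a row, no symbol had to be dropped, and all 39 were among the 14770 rows that stood above the table's floor often enough to be tested. They were read in 14 livers of C57BL/6N mice whose diets began at 7 weeks of age. The chow group had 4 livers and its diet drew about 12% of energy from fat. The HFWD group had 5 livers and a high-fat Western diet with 40% of energy from fat. The HFWD+sugar group had 5 livers, the same Western diet, and drinking water with 42 g of sugar per litre, made of 55% fructose and 45% sucrose. Sex and weeks on diet are not in the labels. Nor do the labels state that every library is a separate mouse, so the spread behind the p-values may be partly technical.

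Complement is a cascade of plasma proteases that coats microbes and debris with C3 fragments and ends in a pore, the membrane attack complex. It is started by C1q bound to antibody (classical pathway), by mannose-binding lectins bound to sugars (lectin pathway), or by C3 itself with factors B and D (alternative pathway). Coagulation is a parallel cascade in which contact factors or tissue factor lead to thrombin, and thrombin cuts fibrinogen into fibrin; protein C, protein S and plasmin hold it back or dissolve the clot. Hepatocytes make most of these proteins, and many are acute-phase proteins that rise in blood during inflammation. Of the 39 members, 32 are made mainly by the liver. The 3 chains of C1q and properdin (Cfp) come mainly from macrophages and related myeloid cells, and factor D (Cfd), factor VIII (F8) and von Willebrand factor (Vwf) mainly from fat or endothelium, so these 4 and 3 members are set apart below.

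Values are the authors' normalized signal per gene row on a linear scale, called units here, with an exact floor of 1. Low values fall on steps, and a single step (1 read) was worth between 2.47 and 6.85 units. By that measure the libraries held 3.77 to 9.34 M reads, fewest in chow 4. Differences are on the log2(units + 1) scale, which understates changes of low rows; "rose", "fell" and "called" refer to limma's 2-sided test with Benjamini-Hochberg adjustment over all rows and a threshold of 0.05. In bulk tissue, fewer cells of a type and less RNA per cell cannot be told apart. As a check of the tissue, all 6 hepatocyte markers were tested and summed to 11880 to 20718 units per liver, although the row of albumin (Alb), the main plasma protein of liver, averaged only 3036. All 11 macrophage markers with a row and all 8 endothelial markers were tested. The 6 neutrophil rows summed to 6 to 28.3 units, where 6 means all at the floor. The platelet and T cell lists, however, summed to 12617 to 24292 and 12493 to 19048 units, as high as the hepatocyte list. In each of these 2 lists 3 rows averaged below 3 units. The summed units alone therefore do not identify the tissue.

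Many members had a row far lower than another row on the opposite strand nearby. For each member the highest row on the opposite strand within 200 kb was taken as its opposite-strand row. Such a row existed for 35 members, exceeded the member's own row in 28 and exceeded it more than 10-fold in 18. The median ratio was 14.9. Taking the highest row of a window favours a partner above the member, and the same counts were not made for all rows. These counts and the ratio therefore do not show that the members lie unusually low. C3, the most abundant complement protein of plasma, averaged 2191 units, and Trip10, 21.3 kb away on the other strand, averaged 256238. The C2, C4b and factor B (Cfb) rows averaged 4112, 387 and 219 units beside a shared opposite-strand row, Zbtb12, at 87190. Factors VII and X averaged 43.8 and 255 units, and Grtp1 on the other strand averaged 42131. The labels do not say whether counting used strand, so reads of genes that overlap on opposite strands cannot be told apart. Only 5 of the 35 members overlap their opposite-strand row. C4b, F7 and F10 lie 136, 139 and 118 kb from theirs, and why their rows lie below these separate rows was not tested. Symbols below name rows of the table. C2 and Cfb also overlap on the same strand, and C4b and C1ra have near-identical relatives in the mouse genome, so their rows are uncertain.

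**Figure D1:**
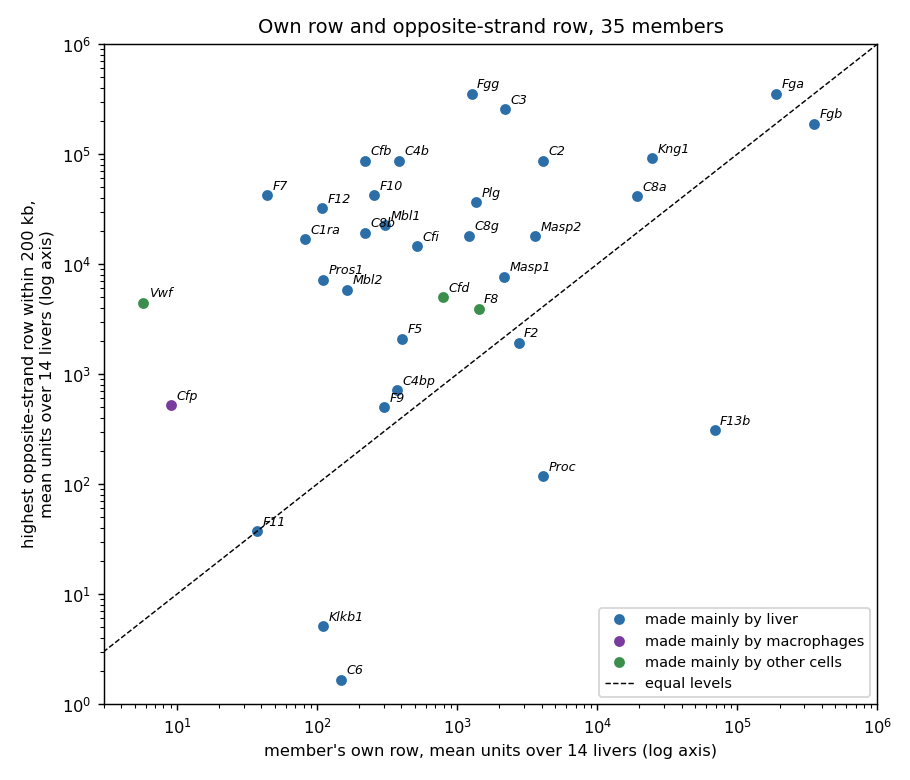
Mean units over 14 livers of each member's own row (x, log axis) against the highest opposite-strand row within 200 kb (y, log axis), for the 35 members that have such a row; colours give the cell source and the dashed line marks equal levels. The points of 28 members lie above the line, C3 and Fgg far above it, and those of F13b, Proc, C6 and Klkb1 far below.

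Per kilobase of annotated exon, the mean level ran from 214694 units for fibrinogen beta (Fgb) to 0.358 for Vwf. Fgb was followed by Fga at 64222, by the factor XIII carrier subunit F13b at 27217, by kininogen (Kng1) at 7835, by C8a at 5309 and by Proc at 2507. The 5 lowest rows were Vwf, Cfp at 5.26, C1qc at 11.1, C1qb at 11.6 and C1qa at 14.2, all of them outside the liver-made class. The counter is not named, so the annotated exons may not be the stretch counted. The row of Gm17662, opposite C8a, averaged 41268 units with an annotated exon of only 0.024 kb.

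Against chow, 5 of the 39 members were called on HFWD and 8 on HFWD+sugar, and none was called between the 2 Western diets. On HFWD, Mbl2, Cfd and C8g rose and C8a and C8b fell, which is 12.8% of the members where 3.38% of all rows tested were called. On HFWD+sugar, C1qa, C1ra, Mbl2, Cfd and C8g rose and C8a, C8b and Proc fell, 20.5% of the members beside 9.05% of all rows. By direction, the shares of all rows called higher were 2.44% on HFWD and 5.67% on HFWD+sugar, and those called lower were 0.934% and 3.38%. The split depended on scaling: on HFWD+sugar 837 rows were higher and 499 lower as deposited, and 420 higher and 1151 lower after median centring. Between HFWD+sugar and HFWD limma called 0 members and 0% of all rows, with 5 members and 1273 rows at an unadjusted p under 0.05. The median difference from chow over the 39 members was 0.083 on HFWD and 0.32 on HFWD+sugar, where all rows had medians of 0.042 and 0.12; after median centring the medians on HFWD+sugar were 0.11 for the members and -0.092 for all rows. The counts rest on few livers. On HFWD the count was 2 without HFWD 4 and 2 without chow 3, C8a and C8g in each. On HFWD+sugar it was 4 without any of HFWD+sugar 4, HFWD+sugar 5 or chow 3, namely Mbl2, C8a, C8b and Proc, and 5 without HFWD+sugar 1. Both comparisons share the chow livers.

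**Figure D2:**
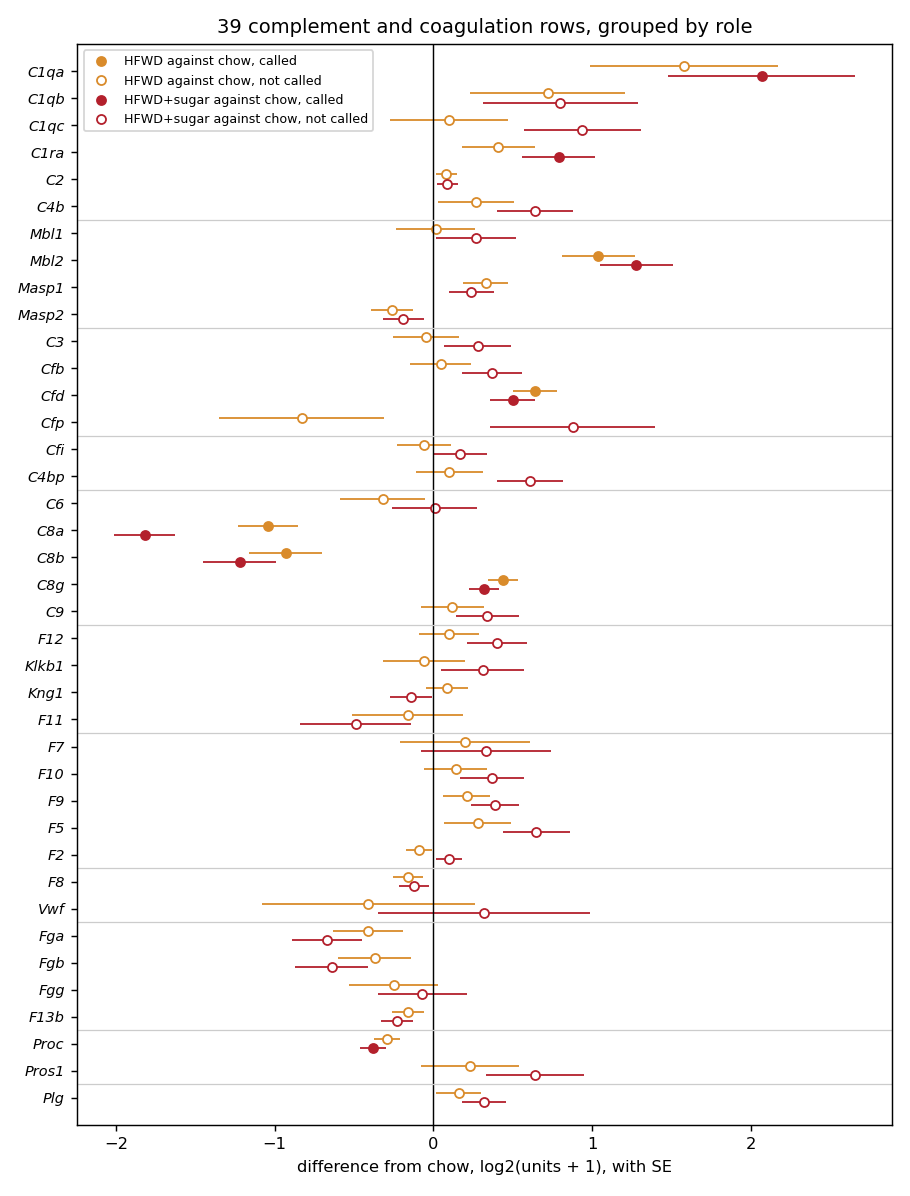
Difference from chow on the log2(units + 1) scale (x) for each of the 39 members (y, grouped by role from the classical pathway at the top to plasminogen at the bottom), orange for HFWD and red for HFWD+sugar; bars are SE and filled points were called. C8a and C8b lie lowest, at -1.82 and -1.22 on HFWD+sugar, and C1qa highest, at 2.07 with an SE of 0.59.

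The terminal pathway held the largest fall of any member. C8a and C8b encode the alpha and beta chains of C8, which anchors the membrane attack complex in the target membrane before C9 joins. C8a lies on chromosome 4, 104488284 to 104549003 on the minus strand, and C8b 11.1 kb away at 104438922 to 104477153 on the plus strand (mm9). The 4 chow livers held 28264, 45437, 35319 and 28475 units of C8a, the 5 HFWD livers 16984, 13274, 23691, 11914 and 18655, and the 5 HFWD+sugar livers 11389, 10358, 10130, 7268 and 9104. No diet overlapped another, with chow highest and HFWD+sugar lowest. C8a went from 34373 ± 8071 (SD, n = 4) to 16904 ± 4670 (SD, n = 5) on HFWD, 2.06-fold lower (log2 difference -1.04, SE 0.19, limma adjusted p = 0.00403), and to 9650 ± 1559 (SD, n = 5) on HFWD+sugar, 3.53-fold lower (-1.82, SE 0.19, limma adjusted p = 1.19e-05). Both calls held in all 24 alternatives. Between the Western diets C8a was 1.72-fold lower with sugar (-0.78, SE 0.18), the smallest unadjusted p of the members in that comparison, 0.000354, but it did not pass (limma adjusted p = 0.46).

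The C8b row fell with it at a far lower level. Chow livers held 295, 482, 370 and 253 units of C8b, HFWD livers 257, 145, 235, 142 and 145, and HFWD+sugar livers 162, 189, 137, 115 and 135. HFWD 1, at 257, reached into the chow range, and every HFWD+sugar liver lay below every chow liver. The means were 350 ± 101, 185 ± 56.4 and 148 ± 28.6 (SD, n = 4, 5 and 5), 1.9-fold lower on HFWD (limma adjusted p = 0.0308) and 2.32-fold lower on HFWD+sugar (limma adjusted p = 0.00349). The HFWD+sugar call held in all 24 alternatives. The HFWD call was lost without any of chow 1, chow 2, chow 3, HFWD 2, HFWD 4 or HFWD 5, at limma adjusted p from 0.0526 to 0.0944. It was lost in 10 of 24 alternatives, the 2 diets alone and no filter among them, at limma adjusted p up to 0.131. The C8b row was 0.887% to 1.06% of the C8a row on the other strand in chow livers, 0.776% to 1.51% in HFWD livers and 1.36% to 1.83% in HFWD+sugar livers. Chow and HFWD+sugar did not overlap in that ratio. The part of C8a reads in the C8b values was not tested.

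Inside the C8a gene, on the plus strand, the table lists Gm17662 with an annotated exon of 0.024 kb. Its row held 43886, 64056, 47764 and 43440 units on chow, 41171, 34747, 51947, 37490 and 47602 on HFWD, and 34428, 36021, 32636, 29342 and 33219 on HFWD+sugar. Chow and HFWD overlapped, and all 5 HFWD+sugar livers lay below all 4 chow livers. On HFWD+sugar it was 1.49-fold lower than on chow (-0.57, SE 0.13, limma adjusted p = 0.013), against 3.53-fold for C8a, and on HFWD 1.17-fold lower, not called (limma adjusted p = 0.437). The HFWD+sugar call was lost in 1 of 24 alternatives, quantile normalization (limma adjusted p = 0.0662). The part of reads from C8a in this row, or the reverse, was not tested.

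Because C8a and C8b moved the same way, the sequence before each start site is shown, from RefSeq on GRCm38.p6, 5′ to 3′ on the gene's strand; capitals mark the letters GTTAAT or their reverse complement ATTAAC, the core that the liver factor HNF1 binds. The C8a stretch is chr4:104876399-104876648 on the minus strand and the C8b stretch chr4:104766067-104766316 on the plus strand, 250 bases each.
C8a: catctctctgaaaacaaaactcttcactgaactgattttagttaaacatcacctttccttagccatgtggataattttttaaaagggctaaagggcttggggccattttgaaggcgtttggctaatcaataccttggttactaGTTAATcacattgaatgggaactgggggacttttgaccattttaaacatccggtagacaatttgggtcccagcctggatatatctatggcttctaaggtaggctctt
C8b: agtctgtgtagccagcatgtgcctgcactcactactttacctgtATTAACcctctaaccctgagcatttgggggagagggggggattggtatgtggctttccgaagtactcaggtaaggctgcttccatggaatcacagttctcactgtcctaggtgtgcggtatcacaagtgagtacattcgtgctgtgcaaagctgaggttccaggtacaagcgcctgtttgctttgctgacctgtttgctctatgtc
Counted from the start site, the core begins at position -107 in C8a and at -206 in C8b. Of 32851 mouse promoters of 300 bases, 7.1% held it on either strand, and so did 9 of 30 promoters of the 29 members found in that table. TTGCNNAA, a C/EBP core, was in 10.8% of promoters and in 8 of the 30, and CAAAGTC, an HNF4 core, was in 4.44% and in 0 of the 30. Neither of those 2 motifs occurred in the C8a or C8b window. These are matches of letters only.

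C8g encodes the gamma chain of C8, a lipocalin linked to the alpha chain. Its row (chromosome 2, 25354171 to 25357239, minus strand) held 1000, 902, 988 and 1075 units on chow, 1401, 1310, 1354, 1460 and 1220 on HFWD, and 1284, 1027, 1262, 1290 and 1352 on HFWD+sugar. Every HFWD liver exceeded every chow liver, and HFWD+sugar 2, at 1027, lay within the chow range. It went from 991 ± 71 to 1349 ± 91 on HFWD, 1.36-fold higher (limma adjusted p = 0.0136), and to 1243 ± 125 on HFWD+sugar, 1.25-fold higher (limma adjusted p = 0.0405). The 3 chains of C8 were thus called in unlike directions. The HFWD+sugar call for C8g was lost in 15 of 24 alternatives, among them without any of chow 1, 2 or 3, HFWD 1, 2 or 3, or HFWD+sugar 1, 3, 4 or 5 (limma adjusted p = 0.0508 to 0.0971), and median centring ended both its calls (0.121 and 0.598). The Fbxw5 row, which overlaps C8g on the other strand, averaged 17902 ± 3294, 19017 ± 991 and 17227 ± 1209 units in the same order of diets and was not called.

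The other terminal members did not pass. C6, which binds C5b at the start of pore assembly, averaged 158 ± 41.9 units on chow, 129 ± 49.8 on HFWD and 159 ± 39.8 on HFWD+sugar. C9, which polymerises to form the pore, averaged 253 ± 62.9, 271 ± 40.2 and 324 ± 99.1. Of the 5 terminal members 3 were called in each comparison with chow, C8g upward and C8a and C8b downward. Of all rows tested, 3.38% were called on HFWD and 9.05% on HFWD+sugar.

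**Figure D3:**
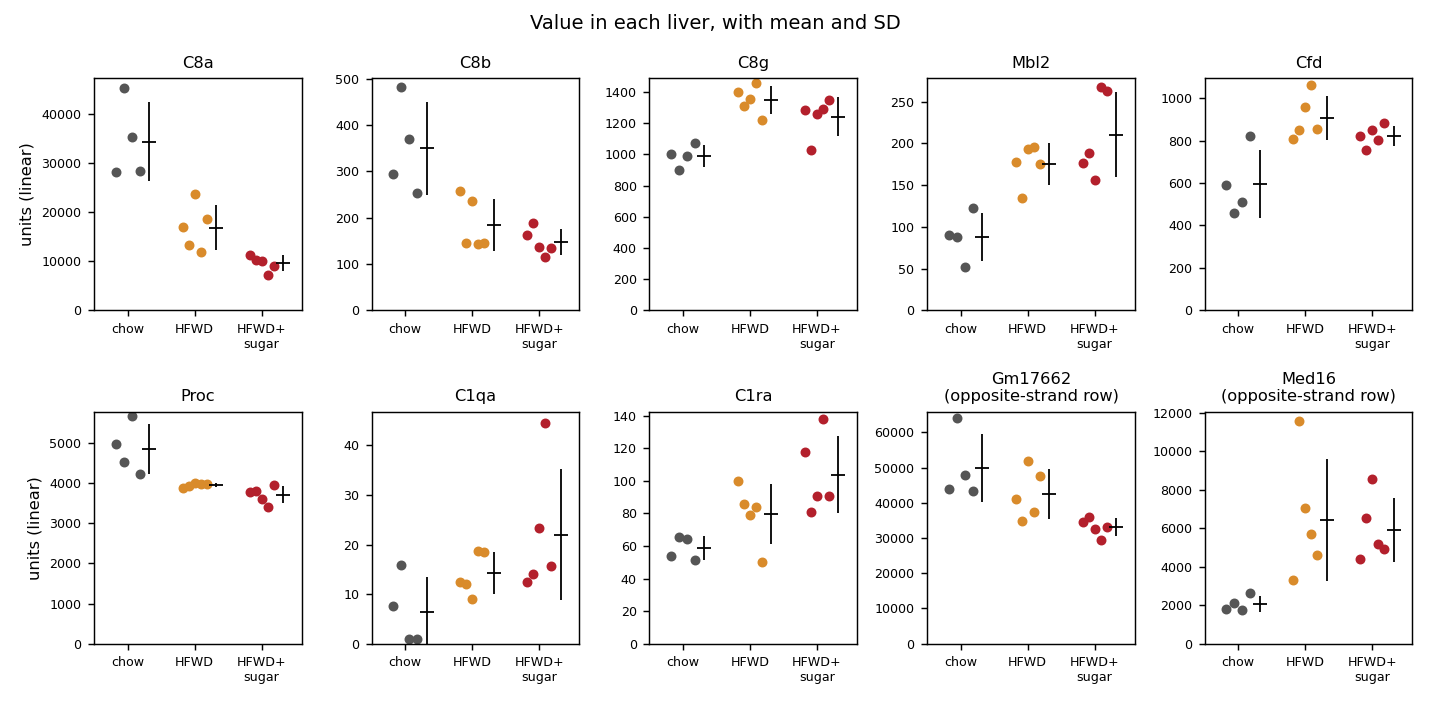
Units in each liver (y, linear, from 0) by diet (x) for the 8 members called against chow and the opposite-strand rows Gm17662 and Med16; points are livers in replicate order, and dashes with bars are the mean and SD, cut at 0 for C1qa on chow. C8a steps down over the 3 diets without overlap, and the Mbl2 livers on both Western diets lie above all chow livers.

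In the lectin pathway Mbl2 rose on both Western diets. Mbl2 encodes mannose-binding lectin C, a liver-made collectin that binds microbial sugars. Its row (chromosome 19, 30307418 to 30314175, plus strand) held 89.6, 87.3, 51.7 and 123 units on chow, 178, 134, 193, 196 and 175 on HFWD, and 177, 189, 156, 267 and 263 on HFWD+sugar. All 10 livers on the Western diets exceeded all 4 chow livers. The mean went from 88 ± 29.2 to 175 ± 24.5 on HFWD, 2.05-fold higher (1.04, SE 0.23, limma adjusted p = 0.0181), and to 210 ± 51.2 on HFWD+sugar, 2.43-fold higher (1.28, SE 0.23, limma adjusted p = 0.00281). The HFWD+sugar call held in all 24 alternatives. The HFWD call was lost in 4 of 24, without HFWD 4 (0.0534) or chow 3 (0.0605), with the 2 diets alone and with no filter. On the other strand 57.5 kb away, the row of Gldc, a glycine-cleaving enzyme, ran the other way, from 6617 ± 527 on chow to 5645 ± 375 and 5406 ± 392, and fell on HFWD+sugar (limma adjusted p = 0.0349). The Gldc call was lost without chow 1 or 3 or HFWD+sugar 2, 3, 4 or 5 (0.0506 to 0.107). It was also lost with the 2 diets alone and under quantile normalization, at limma adjusted p up to 0.143.

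The remaining lectin members did not pass. Mbl1, the sister lectin, averaged 277 ± 61.1, 283 ± 77.7 and 347 ± 125 units on chow, HFWD and HFWD+sugar. Masp1 and Masp2 are the proteases the lectins carry. Masp1 averaged 1874 ± 347, 2352 ± 400 and 2185 ± 208, with an unadjusted p of 0.0262 on HFWD and a limma adjusted p of 0.225. Masp2 averaged 4020 ± 730, 3337 ± 479 and 3505 ± 436. Tardbp, which overlaps Masp2 on the other strand and encodes an RNA-binding protein, rose from 15733 ± 1228 to 19668 ± 1191 on HFWD (limma adjusted p = 0.0396), a call lost without chow 1, 2 or 3, HFWD 1, 3, 4 or 5, or HFWD+sugar 1 or 4 (0.0528 to 0.121) and under median centring (0.404). On HFWD+sugar Tardbp stood at 17938 ± 1343 and was not called. Sftpd, opposite Mbl1, averaged 22192 ± 3276, 23196 ± 2895 and 22362 ± 4727.

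In the alternative pathway Cfd rose and C3 did not pass. Cfd encodes factor D, or adipsin, the protease that cuts factor B and a main secreted product of fat cells. Its row (chromosome 10, 79353598 to 79355401, plus strand) held 592, 457, 510 and 822 units on chow, 810, 852, 960, 1062 and 855 on HFWD, and 821, 757, 849, 803 and 885 on HFWD+sugar. Chow 4, at 822, reached into both Western diet ranges, and the other 3 chow livers lay below all 10. The mean went from 595 ± 161 to 908 ± 103 on HFWD, 1.56-fold higher (0.64, SE 0.14, limma adjusted p = 0.016), and to 823 ± 48.2 on HFWD+sugar, 1.41-fold higher (0.5, SE 0.14, limma adjusted p = 0.0331). The HFWD call was lost in 6 of 24 alternatives, among them without HFWD 4 (0.0532) or chow 3 (0.0614). The HFWD+sugar call was lost without any of chow 1, 2 or 3 or HFWD+sugar 1, 3, 4 or 5 (limma adjusted p = 0.0502 to 0.104), and median centring ended both (0.0817 and 0.267).

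Of 5 adipocyte markers, 4 were at or near the floor: Adipoq at most 4.15 units in any liver, Lep at most 4.95, Plin1 at most 1.3 and Retn at 1 in all 14. Cidec, which fatty livers also express, ranged from 1876 to 3146 and did not pass. Beside Cfd, 2.05 kb away on the other strand, lies Med16, a Mediator subunit. Its row held 1792, 2141, 1751 and 2653 units on chow, 3295, 11550, 7034, 5702 and 4635 on HFWD, and 4383, 6509, 8546, 5181 and 4905 on HFWD+sugar. No chow liver overlapped either Western diet, and HFWD 2 was the highest. Med16 was 2.86-fold higher on HFWD (1.52, SE 0.27, limma adjusted p = 0.00371) and 2.79-fold higher on HFWD+sugar (1.48, SE 0.27, limma adjusted p = 0.00317), and both calls held in all 24 alternatives. Per exon kilobase the Med16 row averaged 1.25 times the Cfd row, and the part of either gene in the other's row was not tested.

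C3, on which all pathways converge, held 1990, 2837, 1570 and 1803 units on chow, 2627, 1766, 1446, 2390 and 1700 on HFWD, and 2766, 2405, 1910, 3614 and 1856 on HFWD+sugar. All 3 ranges overlapped, with means of 2050 ± 552, 1986 ± 499 and 2510 ± 721 and no call (limma adjusted p = 0.951 and 0.437 against chow). Trip10, 117 times as high on the other strand, averaged 287332 ± 35741, 262181 ± 43288 and 225421 ± 38997, also not called (0.724 and 0.151). Cfb, the factor that pairs with C3b as the alternative convertase, averaged 198 ± 50.9, 201 ± 30.5 and 254 ± 52. Its opposite-strand row Zbtb12 averaged 92505 ± 7278, 88203 ± 6892 and 81924 ± 6999, not called.

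The macrophage-made members lay near the floor. C1qa, C1qb and C1qc encode the A, B and C chains of C1q and sit together on chromosome 4 on the minus strand, with no row on the other strand within 200 kb. C1qa (136451832 to 136454718) held 7.67, 15.9, 1 and 1 units on chow, 12.5, 12.1, 9.12, 18.8 and 18.4 on HFWD, and 12.4, 14.1, 23.4, 44.5 and 15.6 on HFWD+sugar. Chow 3 and chow 4 were at the floor, chow 2 overlapped the other diets, and HFWD+sugar 4 was highest. The log2 difference from chow was 2.07 (SE 0.59, limma adjusted p = 0.037) on HFWD+sugar and 1.58 (SE 0.59, limma adjusted p = 0.167) on HFWD; with a mean of 5.35 reads and the floor in 2 chow livers no fold is given. The call was lost without chow 3 or 4 or any of HFWD+sugar 2, 3, 4 or 5 (limma adjusted p = 0.0534 to 0.127).

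C1qb held 2.56, 13.3, 5.76 and 13.6 units on chow, 16.6, 19.6, 18.1, 10.7 and 5.28 on HFWD, and 9.33, 8.46, 18.3, 17.3 and 18.2 on HFWD+sugar, and all ranges overlapped. C1qc held 15.4, 13.3, 17.3 and 13.7 on chow, 20.8, 9.06, 27.3, 18.8 and 10.6 on HFWD, and 34.2, 23.9, 26.1, 49.2 and 20.7 on HFWD+sugar. Every HFWD+sugar liver exceeded every chow liver in C1qc, without a call (0.94, SE 0.37, limma adjusted p = 0.123). The C1qb difference was 0.8 (SE 0.49, limma adjusted p = 0.333).

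Cfp encodes properdin, which steadies the alternative convertase. Its row held 5.13, 5.31, 5.76 and 13.7 units on chow, 4.15, 1, 3.04, 10.2 and 2.64 on HFWD, and 6.22, 22.6, 7.82, 24.7 and 15.6 on HFWD+sugar. All ranges overlapped, on a mean of 3.13 reads. HFWD+sugar stood 1.71 above HFWD on the log2 scale (SE 0.49, unadjusted p = 0.00282), which did not pass (limma adjusted p = 0.503). Spaca5, its opposite-strand row 137 kb away, averaged 575 ± 72.8, 491 ± 45.4 and 504 ± 29.2, not called.

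Of 11 macrophage markers, Cd5l alone was called against chow, 9.09% beside 9.05% of all rows on HFWD+sugar. The list's median difference there was 0.12, the same as over all rows, with 6 of 11 above 0. Cd5l encodes a secreted macrophage protein and rose from 35.3 ± 12.5 units on chow to 106 ± 55.8 on HFWD+sugar (1.49, SE 0.33, limma adjusted p = 0.0099), with HFWD at 56.4 ± 5.86. Its livers held 38.5, 50.4, 31.7 and 20.6 on chow and 62.1, 76, 70.4, 195 and 126 on HFWD+sugar, with no overlap and HFWD+sugar 4 highest. That liver was not high in macrophage rows alone. It was the highest of the 14 in 16 of the 39 members. Of these, 13 were liver-made, among them C3, C4b, C1ra, C4bp, F5 and Mbl2. HFWD+sugar 4 also had the fewest rows at the floor, 36.7%, and the share of all rows that were highest there was not counted. The Kupffer cell marker Clec4f ranged from 20.6 to 58.2 on chow and from 36.6 to 106 on HFWD+sugar and did not pass. Csf1r, the receptor that keeps macrophages alive, averaged 2142 ± 388 on chow and 1865 ± 116 on HFWD+sugar, and Marco and Timd4 averaged 5.18 and 7.4 on chow and 3.15 and 5.43 on HFWD+sugar, none called. The summed macrophage list gave 2565 to 4809 units on chow, 3121 to 3963 on HFWD and 3033 to 4305 on HFWD+sugar. These sums rest mainly on Csf1r and Mpeg1, so they say little of the lower markers. The part of macrophage number in the C1q values was not tested.

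**Figure D4:**
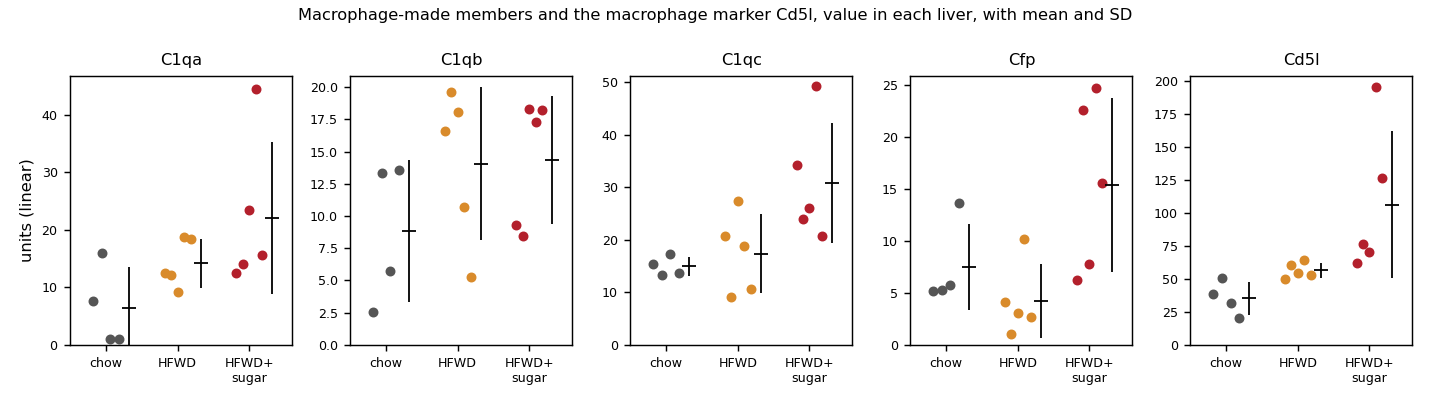
Units in each liver (y, linear, from 0) by diet (x) for the 4 macrophage-made members and the macrophage marker Cd5l; dashes with bars are mean and SD, cut at 0. The livers of C1qa, C1qb, C1qc and Cfp stay below 50 units, and HFWD+sugar 4 holds the highest value in every panel but C1qb.

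C1ra, a protease that C1q carries and the liver makes, rose on HFWD+sugar. Its row (chromosome 6, 124462423 to 124473458, plus strand) held 53.9, 65.4, 64.5 and 51.4 units on chow, 99.7, 85.7, 79.2, 83.8 and 50.1 on HFWD, and 118, 81, 90.9, 138 and 90.7 on HFWD+sugar. All 5 HFWD+sugar livers exceeded all chow livers, and HFWD 5, at 50.1, was the lowest of the 14. The mean went from 58.8 ± 7.19 to 104 ± 23.6, 1.73-fold higher (0.79, SE 0.23, limma adjusted p = 0.04), with HFWD at 79.7 ± 18.2 (limma adjusted p = 0.41). The call was lost in 13 of 24 alternatives, median centring among them. These also include leaving out chow 1, 3 or 4, HFWD 2 or 4, or HFWD+sugar 1, 4 or 5 (limma adjusted p = 0.0505 to 0.112). C1s, its partner protease on the other strand 6.91 kb away, averaged 17196 ± 2046, 17834 ± 799 and 15339 ± 853, not called. C2 averaged 3939 ± 190, 4172 ± 145 and 4189 ± 194, and C4b, which with C2 forms the classical convertase, averaged 315 ± 141, 364 ± 87.6 and 467 ± 84 (limma adjusted p = 0.102 on HFWD+sugar).

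The plasma inhibitors of complement did not pass. C4bp, which binds C4b and helps factor I destroy it, held 325, 401, 236 and 260 units on chow, 409, 267, 337, 378 and 248 on HFWD, and 407, 569, 313, 602 and 461 on HFWD+sugar. HFWD+sugar 3 lay within the chow range and the other 4 HFWD+sugar livers above it. C4bp was 1.53-fold higher on HFWD+sugar than on chow (0.61, SE 0.21, limma adjusted p = 0.0719). It was called when chow 2 was left out, as were C4b, F9, F5 and Pros1, which brought the count of members to 11 while Cfd and C8g dropped out. Factor I (Cfi) averaged 507 ± 162, 474 ± 48.6 and 557 ± 105, and its opposite-strand row Ccdc109b averaged 15943 ± 1984, 14269 ± 1214 and 13488 ± 757.

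None of the 15 contact, clotting factor, cofactor or fibrin rows was called by limma in any comparison. At an unadjusted p under 0.05 there were 0 on HFWD, 5 on HFWD+sugar (F9, F5, Fga, Fgb and F13b) and 1 between the Western diets (F2). Of all 14770 rows tested, 2397, 3656 and 1273 had such a p in the same order. The shares of all rows called were 3.38%, 9.05% and 0%. In the contact group Kng1, the kininogen that yields bradykinin, averaged 24994 ± 3637, 26701 ± 4956 and 22610 ± 1731 units. Kng2, its relative on the other strand, fell on HFWD+sugar from 103969 ± 9248 to 79551 ± 6430, 1.31-fold (limma adjusted p = 0.0244), with no overlap between chow and HFWD+sugar. That call was lost without HFWD+sugar 1 (0.0605) or HFWD+sugar 4 (0.0722). It was lost in 6 of 24 alternatives, quantile normalization among them, at limma adjusted p up to 0.392. Factor XII, which starts the contact pathway, averaged 96 ± 20, 102 ± 13.9 and 127 ± 22.8 beside Slc34a1 at 32385 ± 1241, 33437 ± 1660 and 31078 ± 2144. Prekallikrein (Klkb1) averaged 102 ± 22.8, 99.5 ± 29.3 and 127 ± 28.9, and factor XI (F11) 44.6 ± 22.8, 38.7 ± 12.5 and 29.9 ± 8.59.

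Of the clotting factors proper, 5 in all, none passed. F5 encodes factor V, the cofactor of factor Xa, and held 354, 366, 342 and 204 units on chow, 469, 357, 309, 474 and 303 on HFWD, and 469, 524, 332, 667 and 496 on HFWD+sugar. HFWD+sugar 3, at 332, lay within the chow range and the other 4 lay above it, for a 1.57-fold higher mean without a call (0.65, SE 0.21, limma adjusted p = 0.0594). F2 encodes prothrombin and held 2700, 2882, 2956 and 2408 on chow, 2605, 2645, 2450, 2603 and 2497 on HFWD, and 3180, 2785, 2755, 3172 and 2747 on HFWD+sugar. The 2 Western diets did not overlap in F2, 1.14-fold higher with sugar (0.19, SE 0.076, unadjusted p = 0.0226, limma adjusted p = 0.568), while chow overlapped both. Factors VII, IX and X, proteases that need vitamin K, averaged 38.2, 258 and 225 units on chow, 44, 299 and 249 on HFWD, and 48, 338 and 286 on HFWD+sugar, with limma adjusted p against chow of 0.103 or more. Grtp1, opposite F7 and F10, averaged 37187 ± 4634, 45804 ± 2150 and 42414 ± 1519 and was not called (0.0649 on HFWD).

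F8 and Vwf, an endothelial pair, circulate together. F8 encodes the cofactor of factor IXa and held 1418, 1799, 1422 and 1473 units on chow, 1351, 1167, 1483, 1486 and 1344 on HFWD, and 1354, 1312, 1398, 1468 and 1463 on HFWD+sugar. All ranges overlapped and chow 2 was highest. Fundc2, which overlaps F8 on the other strand, averaged 3828 ± 320, 3703 ± 425 and 4188 ± 301 units. Its row was 2.75 times the F8 row and was not called. The part of Fundc2 reads in the F8 values was not tested. Vwf held 5.13, 7.96, 1 and 6.85 on chow, 1, 11.1, 1, 2.68 and 5.28 on HFWD, and 9.33, 2.82, 1, 9.87 and 15.6 on HFWD+sugar. With 4 livers at the floor and a mean of 1.9 reads, no difference in Vwf was detectable at this depth. Plekhg6, its opposite-strand row 166 kb away, averaged 5267 ± 4089, 4467 ± 1149 and 3758 ± 169 units, with chow 2 highest at 11384, and was not called. Endothelial markers summed to 4662 to 5887 units on chow, 4358 to 5703 on HFWD and 4256 to 5465 on HFWD+sugar. Limma called 0 of 8, with 0 at an unadjusted p under 0.05 against chow on either diet and 2 between the Western diets. Such a p was held by 2397, 3656 and 1273 of all 14770 rows on HFWD, on HFWD+sugar and between the Western diets.

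Fga and Fgb had the highest rows of all members, and chow 2 and HFWD 5 were the highest livers of their groups in both. Fga, Fgb and Fgg encode the alpha, beta and gamma chains and lie together on chromosome 3, Fgb on the minus strand between 82846169 and 82853725. Fga held 170553, 402598, 198498 and 220523 units on chow, 170236, 170412, 161271, 136122 and 267360 on HFWD, and 158313, 153539, 157352, 144242 and 126065 on HFWD+sugar. Fgb held 322507, 764559, 372708 and 378148 on chow, 319567, 333649, 298760, 255099 and 503412 on HFWD, and 298917, 304195, 292512, 269878 and 227479 on HFWD+sugar. The closing search for a liver apart flagged neither row in any diet, and every HFWD+sugar liver lay below every chow liver in both. Neither passed. Fga averaged 248043 ± 105046, 181080 ± 50222 and 147902 ± 13414, 1.59-fold lower on HFWD+sugar than on chow (-0.67, SE 0.22, limma adjusted p = 0.0613), and Fgb 459481 ± 204922, 342097 ± 94932 and 278596 ± 31428, 1.56-fold lower (-0.64, SE 0.23, limma adjusted p = 0.0865).

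Within a liver the Fga row was 50.5% to 58.3% of the Fgb row, whatever the diet. Fgg did not follow: its row was 0.248% to 0.615% of Fgb and held 1034, 3004, 956 and 939 units on chow, 1204, 1091, 767, 1208 and 1255 on HFWD, and 1412, 1334, 936, 1659 and 968 on HFWD+sugar. Chow 2 was again highest, and HFWD 5 was not apart. Fgg means were 1483 ± 1014, 1105 ± 198 and 1262 ± 308, with no call. F13b averaged 75692 ± 6337, 68010 ± 6915 and 64316 ± 4041, and its chow and HFWD+sugar livers did not overlap, without a call (limma adjusted p = 0.143).

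Of 15 acute-phase rows, 3 were higher in both chow 2 and HFWD 5 than in any other liver, namely Saa1, Itih4 and, by a small margin, Crp; the rows named here were chosen after their values were seen. Saa1, a serum amyloid A gene, held 39802 units in chow 2 and 43884 in HFWD 5, and from 472 to 4008 in the other 12 livers. Itih4 held 109744 and 82607 there and 31013 to 55481 elsewhere. Apcs, serum amyloid P, held 405 in chow 2 but 104 in HFWD 5, within the 35.3 to 111 of the other livers. The 15 acute-phase rows summed to 190214 in chow 2 and 200468 in HFWD 5, and to 60833 to 101220 in the rest, sums that rest mainly on Itih4, Saa1 and Saa2. In other acute-phase rows the pair did not stand apart. Saa2 was 24567 in chow 2, below the 30680 of HFWD+sugar 3, and haptoglobin (Hp) was 629 in HFWD 5 and highest in HFWD+sugar 4, at 1162. HFWD+sugar 4 was the highest liver in 6 of the 15 rows, chow 2 in 4 and HFWD 5 in 3. Without both livers, an alternative chosen after seeing the data, Fga was 1.33-fold lower on HFWD+sugar than on chow and was called (-0.41, limma adjusted p = 0.0479), and Fgb was 1.29-fold lower and was not (0.101). Fga was also called without chow 1 (0.0395), without HFWD 5 alone (0.0419) and under median centring (0.0349), and not without chow 2 alone (0.14). Without both livers the member counts were 3 on HFWD, Mbl2, C8a and C8g, and 12 on HFWD+sugar, 6 of them among the 8 above.

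**Figure D5:**
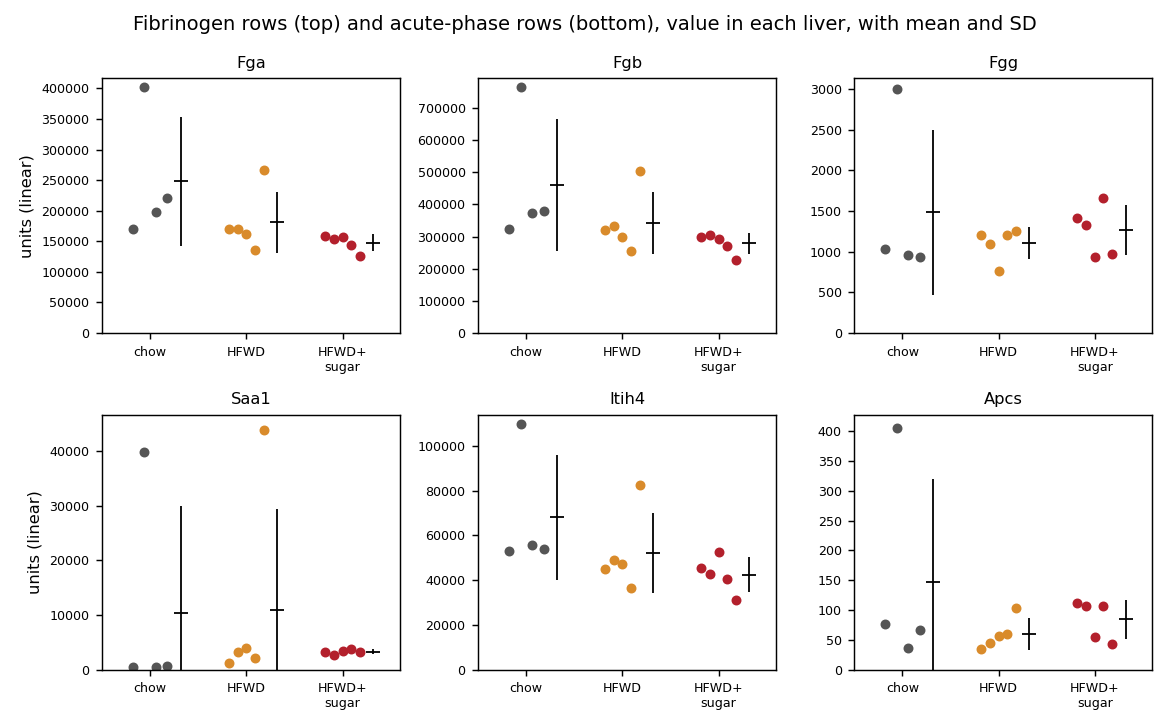
Units in each liver (y, linear, from 0) by diet (x) for the fibrinogen rows and the acute-phase rows Saa1, Itih4 and Apcs; points are livers in replicate order, and dashes with bars are mean and SD, cut at 0. Chow 2 is highest of the chow livers in all 6 panels, and HFWD 5 is highest of the HFWD livers in all 6, by a wide margin in Fga, Fgb, Saa1 and Itih4.

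Of the brakes on clotting, Proc fell on HFWD+sugar. It encodes protein C, the zymogen that thrombin activates to destroy factors Va and VIIIa. Its row (chromosome 18, 32282783 to 32299224, minus strand) held 4975, 4516, 5659 and 4224 units on chow, 3868, 3921, 3999, 3979 and 3980 on HFWD, and 3775, 3804, 3605, 3399 and 3952 on HFWD+sugar. All 10 livers on the Western diets lay below all 4 chow livers. The mean went from 4844 ± 625 to 3707 ± 212 on HFWD+sugar, 1.3-fold lower (-0.38, SE 0.083, limma adjusted p = 0.0101), a call that held in all 24 alternatives, and to 3950 ± 54 on HFWD, 1.22-fold lower, not called (-0.29, SE 0.083, limma adjusted p = 0.071). On HFWD it was called without chow 4 and with array weights. Proc is among the few members far above their opposite-strand row, Iws1 at 100 ± 31.7, 121 ± 6.94 and 129 ± 12.3.

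Protein S (Pros1), the cofactor of protein C, averaged 95.1 ± 54.7, 99.6 ± 14.3 and 135 ± 34.2 units and did not pass (limma adjusted p = 0.216 on HFWD+sugar). Arl13b opposite to it averaged 7853 ± 1783, 6669 ± 774 and 7202 ± 684. Plasminogen (Plg), the zymogen of the enzyme that dissolves fibrin, averaged 1209 ± 214, 1345 ± 156 and 1509 ± 255 (limma adjusted p = 0.154 on HFWD+sugar). Slc22a3, an organic cation transporter 0.588 kb away on the other strand, fell on HFWD+sugar from 40102 ± 3438 to 32112 ± 1534 (limma adjusted p = 0.0239), while HFWD stood at 37697 ± 2167. That call was lost without HFWD+sugar 2, 4 or 5 (0.0537 to 0.067). It was lost in 6 of 24 alternatives, quantile normalization among them, at limma adjusted p up to 0.237.

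The comparison of HFWD+sugar with HFWD asks what liquid sugar adds to the Western diet. No member passed, and the lowest limma adjusted p was 0.46, for C8a. The 5 members with an unadjusted p under 0.05 were C8a, lower with sugar, and Cfp, C4bp, F2 and C1qc, higher with sugar. Of these, only C8a and F2 had Western diet groups that did not overlap. The 5 were picked by p in the same comparison, which favours groups apart. The share of all rows without such overlap was not counted. The count was 0 in all 24 alternatives. The intervals are wide for low rows: Vwf differed by 0.74 with an SE of 0.64, while F2 had an SE of 0.076.

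The opposite-strand rows had a median difference of the other sign on HFWD+sugar. Over the 31 distinct rows, 3 were called on HFWD and 6 on HFWD+sugar, of which 1 was Med16 upward and 5 were downward, with C8a among them as the row opposite C8b. Those are 9.68% and 19.4% of them, beside 3.38% and 9.05% of all rows. Their median difference on HFWD+sugar was -0.11, with 9 of 31 above 0, where the 39 members had 0.32, with 28 above 0, and all rows had 0.12. The 31 include the member rows C8a, Fga and Fgb. The 28 that are no member had a median of -0.09 on HFWD+sugar, with 9 above 0, and 7.14% and 17.9% called on the 2 diets. All these medians come from rows of very unlike level and from the deposited scaling, and no test was made of them.

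Other genes of both systems were read from lists chosen with earlier results known. Of 22 further complement rows tested, 2 rose on HFWD+sugar, 9.09% beside 9.05% of all rows. On HFWD limma called 0, with 4 at an unadjusted p under 0.05, a level that 2397 of all 14770 rows reached. Cd59a, which blocks the membrane attack complex on the body's own cells, rose from 27.7 ± 8.59 to 76.8 ± 24.8 units, 2.64-fold (limma adjusted p = 0.012), with HFWD at 54.2 ± 11.8, and held in all 24 alternatives. C3ar1, the receptor of C3a, went from 1.39 ± 0.782 to 7.03 ± 1.31 (1.78, SE 0.46, limma adjusted p = 0.025) on a mean of 1.57 reads; that call was lost without HFWD+sugar 2 (0.055), HFWD+sugar 4 (0.0589) or chow 3 (0.0702). Of 22 further clotting and fibrinolysis rows, 2 fell on HFWD+sugar, Kng2 and Serpina10, and 1 fell on HFWD, Serpina10. Those are 9.09% and 4.55% of the list, beside 9.05% and 3.38% of all rows. Serpina10 encodes the protein Z-dependent inhibitor of factor Xa and averaged 470 ± 109, 297 ± 51.7 and 271 ± 25.4 (limma adjusted p = 0.032 and 0.00733). Its HFWD+sugar call held in all 24 alternatives, and its HFWD call was lost without chow 1, 2 or 3 or HFWD 2, 3 or 4 (0.0513 to 0.0945).

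None of the 5 rows of the vitamin K cycle and factor export was called (limma adjusted p of at least 0.0826, with 0 at an unadjusted p under 0.05 on HFWD and 2 on HFWD+sugar). Among all 14770 rows, 2397 and 3656 had such a p on these diets. Of 11 rows of transcription factors and IL-6 signalling, 2 rose on HFWD+sugar, 18.2% beside 9.05% of all rows. Cebpa, a liver C/EBP factor, averaged 1452 ± 835, 2749 ± 849 and 2998 ± 908 units (limma adjusted p = 0.0236). That call was lost without chow 1, 2 or 3 or HFWD+sugar 2 or 5 (0.0546 to 0.0728). Stat3, which carries the IL-6 signal to acute-phase genes, averaged 1479 ± 169, 1804 ± 193 and 1953 ± 198 (limma adjusted p = 0.0254). It was lost without chow 1 (0.0838) or HFWD+sugar 1, 2 or 4 (0.0548 to 0.0643) and under median centring (0.314). Of 15 acute-phase rows 1 was called on HFWD+sugar, 6.67% beside 9.05% of all rows. It was ceruloplasmin (Cp), which rose from 1895 ± 134 to 2324 ± 170 (limma adjusted p = 0.0352). That call was lost without chow 1 or 3 or HFWD+sugar 1, 2, 4 or 5 (0.0531 to 0.109) and under median centring (0.637). Of 6 hepatocyte markers 1 was called on each Western diet, 16.7% beside 3.38% of all rows on HFWD and 9.05% on HFWD+sugar. It was the urea cycle enzyme Cps1, which fell from 7899 ± 2361 to 3643 ± 979 and 3016 ± 563 (limma adjusted p = 0.00713 and 0.00101). Among marker lists of other cells, the row of Cd8a, listed as a T cell marker, was called, 17703 units on chow and 14578 on HFWD+sugar (limma adjusted p = 0.037). That call was lost without chow 1, 3 or 4 or HFWD+sugar 1, 2, 4 or 5 (0.0521 to 0.102). It was lost in 11 of 24 alternatives, quantile normalization among them, at limma adjusted p up to 0.21. The other T cell rows were nearly absent, Cd3e and Trbc1 at the floor in all 14 livers and Cd3g at a mean of 1.24 units. The stellate cell (6 tested), neutrophil (2), platelet (2), adipocyte (1) and B cell (1) lists had 0 called by limma in any comparison, with 1 stellate, 1 neutrophil and 1 adipocyte row at an unadjusted p under 0.05 on HFWD+sugar against chow and 1 platelet row on HFWD.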

How the data were processed

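RNA was sequenced from frozen mouse liver, 14 libraries on 3 diets. Per the labels' protocols, ribosomal RNA was removed, 500 ng of RNA was required, libraries passed 12 PCR cycles, and paired 100 bp reads were planned at 50 M. The submitters' processing notes name FastQC, TopHat2 2.0, SAMtools and mm9; which counter, strand setting and scaling were used is not stated there. The deposited values are a normalized signal per gene row, on a linear scale with a floor of 1. Coordinates are mm9, and 35 members match GENCODE vM1, which gave exon lengths; C2, C3, C9 and Klkb1 do not.

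Rows above the floor in at least 4 libraries (14770) were fitted as log2(value + 1) with limma 3.58.1 in R 4.3.3 (package data.table, version 1.17.8), a variance trend and 3 diet means over all 14 libraries. The fit was tested on simulated data. Reads are the value divided by the most frequent value above the floor. Values of every liver were given for members called in any comparison, the 6 lowest p in each comparison, and a fixed set (C3, the C1q and fibrinogen chains, F2, Cfd, F8 and Vwf). Opposite-strand rows within 200 kb were given where they exceeded the member 10-fold or were called. The rows opposite F8 and Proc were given as well. Alternatives were 2 pseudocounts, 2 filters, median centring, quantile normalization, array weights, the 2 diets alone, and leaving out libraries (the pair chow 2 and HFWD 5 was chosen after seeing the data). Members and lists were chosen with earlier results of these data known.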

Additional observations from a re-analysis of the deposited data

Results flagged for a closer look

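In the 20 members given liver by liver, each diet group was searched for a liver whose gap to its nearest neighbour took up most of the group's range on the log2 scale. Of 60 groups, 6 had such a liver; chance flags about 1 in 20 groups. The high ones were F8 in chow 2 at 1799 units, Fgg in chow 2 at 3004 units, and Cfp in chow 4 at 13.7 units. The low ones were F5 in chow 4 at 204 units, Fgg in HFWD 3 at 767 units, and C8g in HFWD+sugar 2 at 1027 units. Chow 4 is the shallowest library, at 3.77 M reads, and its Cfp value is the worth of 2 reads.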

How the results depend on the processing

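No paired analysis was possible because the replicate numbers were given in series order and pair nothing. No called member turned direction in any of its 24 alternatives (23 for C1qa, which the filter on a mean of 20 units removes). Many of the calls said above to be lost without single livers were also lost with the 2 diets alone or with no filter. Quantile normalization also ended the HFWD+sugar calls of C1qa, C1ra and C3ar1. The members called on HFWD, 5, became 2 with the 2 diets alone or with no filter, 3 with median centring, 3 without both chow 2 and HFWD 5, and 2 to 6 with 1 library left out. Those on HFWD+sugar, 8, became 4 with the 2 diets alone or with no filter, and 4 to 11 with 1 library left out. All rows called on HFWD, 499, became 240 with the 2 diets alone, 1021 with array weights, 275 with median centring, 309 with no filter, 916 without both chow 2 and chow 4, and 255 (without HFWD 4) to 1051 (without chow 4) with 1 library left out, with 326, 308 and 300 without HFWD 1, chow 1 and chow 3. On HFWD+sugar, 1336 became 745 with the 2 diets alone, 2174 with array weights, 774 with no filter, and 674 (without HFWD+sugar 4) to 1768 (without chow 4) with 1 library left out, with 860, 880, 858 and 742 without HFWD+sugar 2, HFWD+sugar 5, chow 1 and chow 3. Between the Western diets, 0 rows became 0 to 1 with 1 library left out (1 without HFWD 1) and 0 members stayed 0. The cause of these moves was not tested. Rows under about 20 units rest on a few reads, so differences in C1q, Cfp and Vwf are limited by depth.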
